A study of Mus musculus with 12 samples.

Results

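The interleukin-1 (IL-1) ligands, receptors and antagonist were measured as 8 genes in murine hip cartilage before and after injury. The genes were taken by their symbols, Il1a, Il1b, Il33, Il1rn, Il1r1, Il1rl1, Il1rap and Il1r2, in the deposited array tables. They had 19 of the 45281 probes on the array, and 11 of these were among the 21004 probes with deposited normalized values. Those 11 probes covered all 8 of the 14340 genes named in that table. The Il33 probe carries the symbol 9230117N10Rik in the normalized table and Il33 in the signal table. Likewise 1 of the Il1rn probes carries IL1RA in the normalized table.

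RNA came from femoral head epiphyseal cartilage of C57BL6 mice, for which the labels give an age of 4 to 6 weeks and the methods 5 to 6 weeks. The 12 arrays formed 4 groups of 3, control and injured cartilage of WT mice and of Mapk9 KO mice. Mapk9 encodes a c-Jun N-terminal kinase, and the labels do not say how it was deleted or in which cells. Injury was avulsion of the femoral epiphysis. Control cartilage was snap-frozen at once, whereas injured cartilage was cultured for 4 h in serum-free medium, so injury and culture cannot be told apart in any value below. According to the methods, which do not mention the Mapk9 KO arrays, each replicate pooled 6 hips of 3 mice. In bulk RNA, fewer cells of a type and less RNA per cell cannot be told apart.

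IL-1α and IL-1β, encoded by Il1a and Il1b, bind the receptor encoded by Il1r1, which then recruits the co-receptor encoded by Il1rap to signal through Myd88 and NF-κB. The antagonist encoded by Il1rn occupies the same receptor without signaling, and the receptor encoded by Il1r2 binds IL-1 but lacks a signaling domain. IL-33 acts through a related receptor, ST2, encoded by Il1rl1, with the same co-receptor. In cartilage, IL-1 is known for inducing matrix-degrading proteinases, prostaglandin synthesis and chemokines in chondrocytes.

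The array checks were read first. Between 16930 and 18969 probes were detected per array, where detected means a detection p-value under 0.05 against the negative controls of that array. The median normalized level lay between 7.55 and 7.70 on the log2 scale on all 12 arrays. Mapk9 was lower on the Mapk9 KO arrays, at 9.14 to 9.28 against 10.50 to 10.90 in control cartilage (ILMN_2591066, log2 difference -1.57, SE 0.21, limma adjusted p = 0.0151), and this probe was still detected on all 6 Mapk9 KO arrays. A second Mapk9 probe, ILMN_2716527, was detected on 0 of the 6 and on all 3 WT control arrays. Of the 13 chondrocyte markers, 11 were in the normalized table and were detected on every control array. Col2a1 (13.46 to 14.52) and Prg4 (13.41 to 14.72) had the highest mean log2 levels, while Matn3 and Cnmd were not detected on any array.

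Which part of a transcript a probe reads decides what its value covers, so the first 30 of the 50 bases are given for the probes of the genes upregulated in both genotypes. The sequences are those of the deposited table. In the Il1rap probes the capitals mark 27 bases that all 3 share. Over their full length these 3 probes share 47 of 50 bases, so they are not independent readings of Il1rap.
Il1b, ILMN_2777498: atccgtgtcttcctaaagtatgggctggac
Il1rn, ILMN_3072427: tgccatgtgtgctcaggatgagctgattaa
Il1rn, ILMN_2682566: cctcgggatggaaatctgctggggacccta
Il1rl1, ILMN_2757617: cccctattctcacccagtttgaccttgatt
Il1rap, ILMN_2740464: gaCTCAGATTTTGAGCATCAAGAAAGTCAc
Il1rap, ILMN_2740465: CTCAGATTTTGAGCATCAAGAAAGTCAccc
Il1rap, ILMN_1243228: ggaCTCAGATTTTGAGCATCAAGAAAGTCA
Il1r2, ILMN_2611000: gcgcagacggtgtaaacgcagggctggaaa

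The 2 Il1rn probes do not overlap in sequence and are assigned to different transcript variants, ILMN_3072427 to variant 1 and ILMN_2682566 to variant 2. The Il1rl1 probe is assigned to variant 2, the shorter transcript known to encode the soluble form of ST2, which binds IL-33 without signaling.

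The bases before the annotated start of 5 transcripts of genes that rose post injury are shown for their motif content, from RefSeq (GRCm38.p6). Capitals mark a match to the AP-1 motif (TGANTCA) or the C/EBP motif (TTGCNNAA), searched on both strands together with the NF-κB consensus.
Il1b, chr2:129371140-129371389, minus strand: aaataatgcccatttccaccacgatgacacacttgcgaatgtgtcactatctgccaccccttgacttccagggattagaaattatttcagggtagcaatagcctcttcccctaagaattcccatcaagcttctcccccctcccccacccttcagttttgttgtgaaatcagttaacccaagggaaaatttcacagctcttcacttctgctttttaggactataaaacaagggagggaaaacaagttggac
Il1rn, first start, chr2:24336610-24336859, plus strand: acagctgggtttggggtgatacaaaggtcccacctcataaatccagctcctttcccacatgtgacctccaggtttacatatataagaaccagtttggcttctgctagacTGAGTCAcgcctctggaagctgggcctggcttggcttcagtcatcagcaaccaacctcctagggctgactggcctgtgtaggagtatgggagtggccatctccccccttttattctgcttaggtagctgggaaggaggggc
Il1rl1, first start, chr1:40429320-40429569, plus strand: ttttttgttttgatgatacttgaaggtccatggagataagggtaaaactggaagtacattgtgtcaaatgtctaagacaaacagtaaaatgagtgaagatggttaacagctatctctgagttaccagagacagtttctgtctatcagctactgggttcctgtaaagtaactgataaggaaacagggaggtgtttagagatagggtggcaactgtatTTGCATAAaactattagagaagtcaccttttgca
Il1rl1, second start, chr1:40439379-40439628, plus strand: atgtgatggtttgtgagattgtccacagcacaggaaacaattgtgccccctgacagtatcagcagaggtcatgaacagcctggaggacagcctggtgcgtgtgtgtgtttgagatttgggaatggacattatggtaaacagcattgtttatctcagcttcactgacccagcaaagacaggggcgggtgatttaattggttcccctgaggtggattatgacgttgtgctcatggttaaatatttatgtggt
Il1r2, chr1:40085843-40086092, plus strand: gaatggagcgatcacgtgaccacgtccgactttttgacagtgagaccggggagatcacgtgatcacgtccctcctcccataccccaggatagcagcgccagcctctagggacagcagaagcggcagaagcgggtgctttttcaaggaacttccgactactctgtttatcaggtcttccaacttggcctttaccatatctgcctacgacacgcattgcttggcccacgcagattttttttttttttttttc

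All 8 genes were found in the promoter table, with 13 annotated starts. An AP-1 match stood at -141 relative to the first Il1rn start and at -12 in Il1a, and 6.75% of 32851 promoters of the same length hold one. A C/EBP match stood at -34 in the first Il1rl1 start, at -133 in the first Il1r1 start and at -85 in the second Il33 start, against 9.56% of promoters. The NF-κB consensus was matched at -232 in the second Il1r1 start, against 3.90% of promoters. The 250 bases before the starts of Il1b, Il1r2 and Il1rap held none of the 3 motifs.

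To find which parts of the IL-1 system were modulated by injury, control and injured cartilage were compared within each genotype. In WT cartilage Il1b, Il1rn, Il1rl1, Il1rap and Il1r2 were upregulated post injury, 5 of the 8 genes, and 0 were downregulated. The 3 largest fitted rises were those of the decoy receptor Il1r2 (18.8-fold), the ST2 probe of Il1rl1 (16.2-fold) and Il1b (10.9-fold). Only 1 of 3 WT control arrays detected Il1r2, so its fitted fold rests partly on values not above background. Over all 14340 genes, 8.72% were upregulated and 8.56% downregulated by the same rule, more than 2-fold with a limma p-value below 0.05 after Benjamini-Hochberg adjustment. By probes, 8 of 11 were upregulated, against 7.55% of all. In Mapk9 KO cartilage the same 5 genes and Il1a were upregulated, 6 of 8, and 0 were downregulated, against 11.0% and 10.8% of all genes, and 9 of 11 probes against 9.59% of all. The median fitted log2 change of the 11 probes, of which 3 read the same stretch of Il1rap, was 1.40 in WT and 2.40 in Mapk9 KO, beside -0.02 over all 21004 probes in either genotype. With probes that no control array detected set at their lower bound, described below, the medians were 0.81 and 1.44. The injury comparisons of the 2 genotypes share no arrays.

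**Figure D1:**
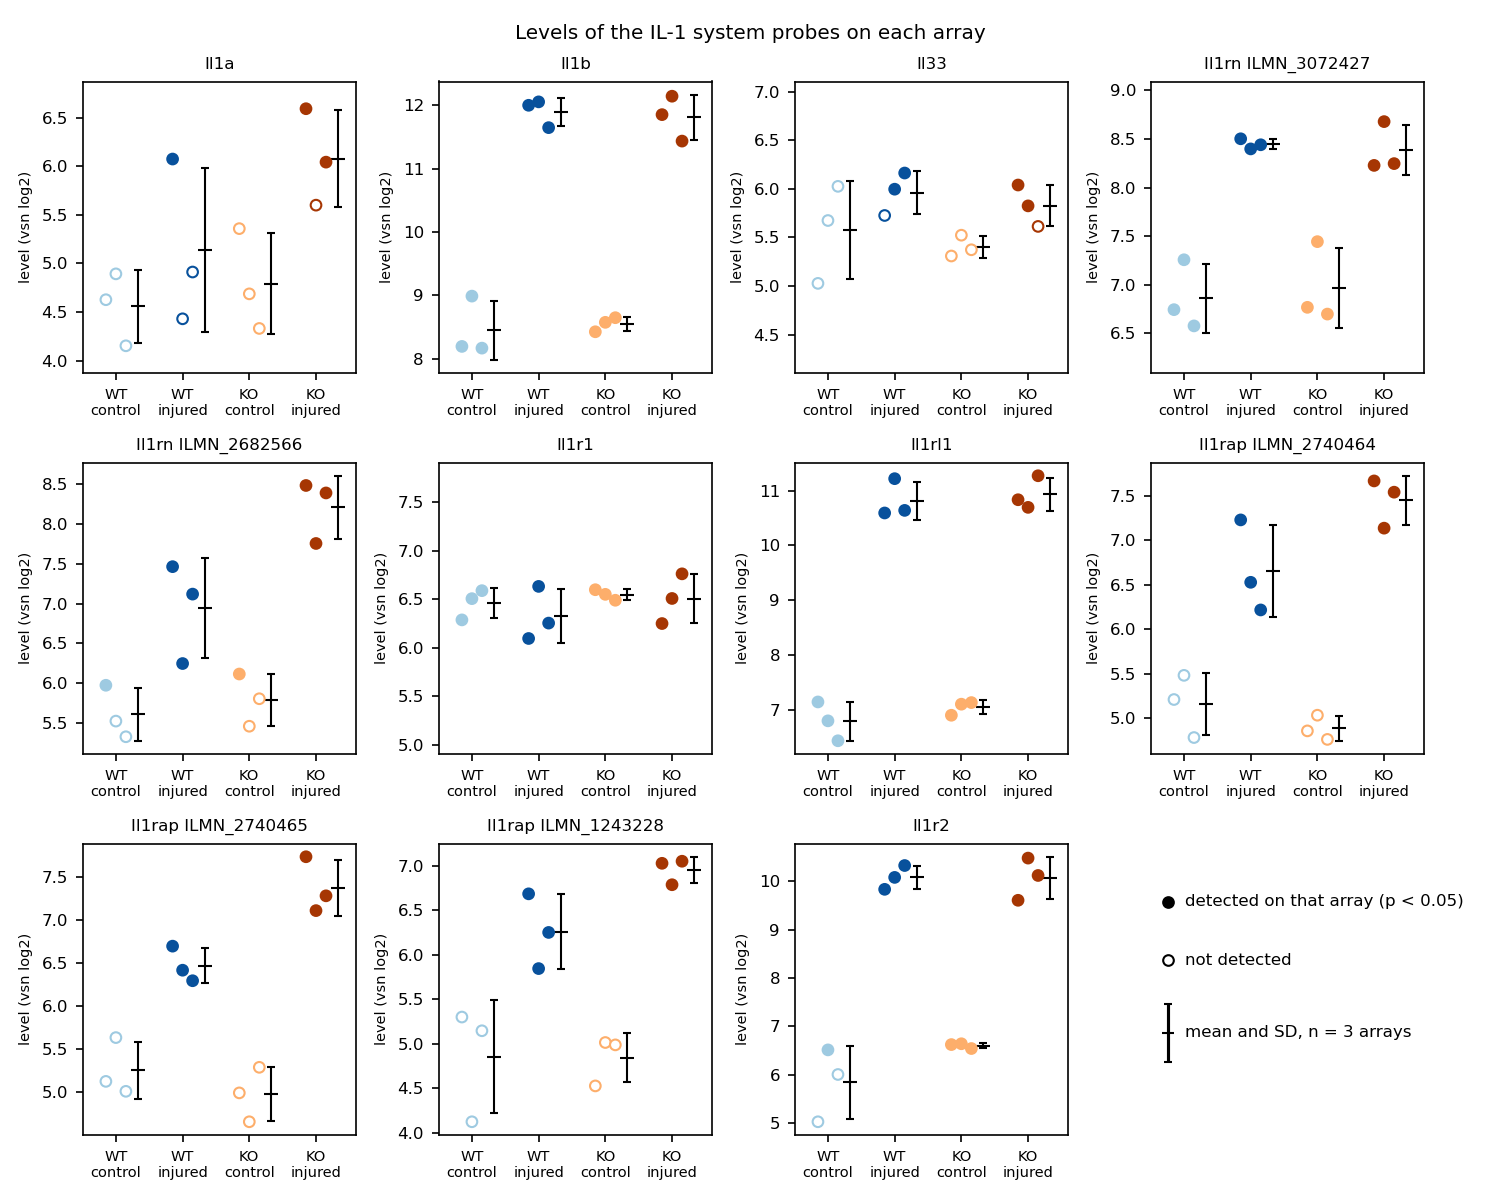
Normalized log2 level of each of the 11 probes on every array (points, filled where the probe was detected), by group, with the mean and SD of 3 arrays beside them. Every injured array lies above every control array for Il1b, Il1rn, Il1rl1, Il1rap and Il1r2 in both genotypes, while the Il1r1 groups overlap.

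Among the ligands, Il1b was detected on all 12 arrays. Its log2 levels were 8.20, 8.99 and 8.17 on the WT control arrays and 11.9996, 12.05 and 11.65 on the WT injured arrays. In Mapk9 KO cartilage they were 8.43, 8.58 and 8.65 in controls and 11.85, 12.14 and 11.43 post injury. Every injured array stood above every control array, as for 20.3% of all probes in WT and 24.5% in Mapk9 KO, and WT and Mapk9 KO overlapped within each condition. The log2 change was 3.45 in WT (SE 0.26, 10.9-fold, 95% confidence interval 7.31 to 16.3, limma adjusted p = 2.09e-05). In Mapk9 KO it was 3.26 (SE 0.21, 9.57-fold, 6.97 to 13.1, limma adjusted p = 1.07e-06). The WT change ranked at 84 of 21004 probes ordered from the largest rise.

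Il1a lay near the detection limit. It was detected on 1 of 3 WT injured arrays, on 2 of 3 Mapk9 KO injured arrays and on 0 of 6 control arrays. The log2 levels were 4.63, 4.89 and 4.15 in WT controls and 6.07, 4.43 and 4.91 in WT injured cartilage, so the groups overlapped and the WT difference did not pass (0.58, SE 0.38, limma adjusted p = 0.302). In Mapk9 KO the levels were 5.36, 4.69 and 4.33 in controls and 6.59, 5.60 and 6.04 post injury. These groups did not overlap, and Il1a passed the threshold (log2 change 1.29, SE 0.30, limma adjusted p = 0.00635). Because no control array and not every injured array detected Il1a, the size of this change cannot be read. The call was lost in 4 of the 18 alternative settings.

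Il33 stayed close to the detection limit in every group, with detection on 0 of 6 control arrays and 4 of 6 injured arrays. Its log2 levels were 5.03, 5.67 and 6.03 in WT controls and 5.73, 6.00 and 6.16 in WT injured cartilage. In Mapk9 KO they were 5.31, 5.52 and 5.37 in controls and 6.04, 5.82 and 5.61 post injury. The WT groups overlapped and the Mapk9 KO groups did not. The log2 differences of 0.39 in WT (95% confidence interval -0.21 to 0.99) and 0.42 in Mapk9 KO (0.03 to 0.82) did not pass, with limma adjusted p-values of 0.334 and 0.0878.

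The antagonist Il1rn was upregulated in both genotypes at the 2 of its 4 probes that have normalized values. At ILMN_3072427 (variant 1), detected on all 12 arrays, the WT log2 levels were 6.74, 7.26 and 6.58 in controls and 8.50, 8.40 and 8.44 post injury. The Mapk9 KO levels were 6.77, 7.44 and 6.70 in controls and 8.23, 8.68 and 8.25 post injury. At this probe the rise was of similar size in the 2 genotypes, 1.59 in WT (SE 0.22, 3.01-fold, limma adjusted p = 0.000754) and 1.41 in Mapk9 KO (SE 0.23, 2.67-fold, limma adjusted p = 0.000782). The difference between these changes was -0.17 (95% confidence interval -0.88 to 0.54).

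At ILMN_2682566 (variant 2) Il1rn was detected on 1 of 3 control arrays of each genotype and on every injured array. The WT log2 levels were 5.97, 5.52 and 5.32 in controls and 7.46, 6.25 and 7.12 post injury. The Mapk9 KO levels were 6.11, 5.46 and 5.80 in controls and 8.49, 7.76 and 8.39 post injury. Here the 3 Mapk9 KO injured arrays stood above the 3 WT injured arrays, as for 7.36% of all probes, whereas the controls overlapped. The log2 change was 1.34 in WT (SE 0.31, 2.53-fold, limma adjusted p = 0.0117) and 2.42 in Mapk9 KO (SE 0.24, 5.36-fold, limma adjusted p = 2.52e-05). Both fitted values rest on control groups with 2 of 3 arrays not above background, and without background correction the Mapk9 KO change was 1.32. The WT call was lost without background correction (0.61), under the methods' t-test and at an adjusted p below 0.01.

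Of the receptors, Il1r1, the signaling receptor of IL-1, was detected on all 12 arrays and did not pass in either genotype. Its log2 levels lay between 6.10 and 6.76 over all arrays, with group means of 6.46 ± 0.16 in WT control, 6.33 ± 0.28 in WT injured, 6.55 ± 0.05 in Mapk9 KO control and 6.51 ± 0.26 in Mapk9 KO injured (SD, n = 3). The 4 groups overlapped. The 95% confidence interval of the log2 change ran from -0.61 to 0.34 in WT and from -0.45 to 0.37 in Mapk9 KO. Changes of 2-fold lie outside both intervals of the fitted values. The levels stood little above the lowest level of any detected probe, which was 5.62 to 6.05 by array. A fall of Il1r1 can therefore not be read in full.

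Il1rl1, at its probe for the variant known as soluble ST2, was detected on all 12 arrays. The WT log2 levels were 7.15, 6.80 and 6.44 in controls and 10.59, 11.22 and 10.64 post injury. The Mapk9 KO levels were 6.91, 7.11 and 7.14 in controls and 10.83, 10.69 and 11.27 post injury. All injured arrays exceeded all control arrays, and the genotypes overlapped within each condition. The log2 change was 4.02 in WT (SE 0.25, 16.2-fold, 95% confidence interval 10.9 to 24.0, limma adjusted p = 6.87e-06) and 3.88 in Mapk9 KO (SE 0.20, 14.8-fold, 10.9 to 19.9, limma adjusted p = 2.85e-07). The probe for variant 1, which is known to encode the membrane form of ST2, was not detected on any of the 12 arrays. Its bead signal lay between 98.8 and 144 without background correction.

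Il1rap, the co-receptor shared by the IL-1 and IL-33 receptors, was detected at its 3 overlapping probes on all 6 injured arrays and on 0 of 6 control arrays. At ILMN_2740464 the WT log2 levels were 5.21, 5.48 and 4.78 in controls and 7.23, 6.53 and 6.22 post injury. The Mapk9 KO levels at this probe were 4.86, 5.03 and 4.76 in controls and 7.66, 7.13 and 7.54 post injury. All injured arrays stood above all control arrays, as they did at the other probes of the 3. The fitted changes at the 3 probes were 2.32- to 2.83-fold in WT and 4.33- to 5.90-fold in Mapk9 KO. Their limma adjusted p-values were 0.00399 to 0.0118 in WT, and 1.64e-05 was the highest of the 3 in Mapk9 KO. No control array detected Il1rap, so the fitted folds rest on control values not above background, and only a lower bound can be read, with each control array at the lowest level of any probe detected on it. By that bound, at ILMN_2740464 Il1rap was at least 1.75-fold higher in WT and at least 2.85-fold higher in Mapk9 KO. Over the 3 probes the lowest bound was 1.33-fold in WT and 2.03-fold in Mapk9 KO. In WT all 3 calls were lost without background correction and under the methods' t-test.

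Il1r2, the decoy receptor, ranked at 25 of 21004 probes by its fitted rise in WT. The WT log2 levels were 5.03, 6.52 and 6.01 in controls, of which 1 array detected it, and 9.84, 10.08 and 10.33 post injury. The Mapk9 KO levels were 6.63, 6.64 and 6.54 in controls and 9.61, 10.48 and 10.12 post injury. Every injured array exceeded every control array. In control cartilage the Mapk9 KO arrays all stood above the WT arrays, while the injured groups overlapped. The log2 change was 4.23 in WT (SE 0.34, 18.8-fold, 95% confidence interval 11.1 to 31.7, limma adjusted p = 3.08e-05) and 3.47 in Mapk9 KO (SE 0.22, 11.1-fold, 7.86 to 15.6, limma adjusted p = 1.15e-06). The WT value includes 2 control arrays not above background. Without WT control replicate 1, the lowest of them, it was 3.82 against 4.19 for Il1rl1, and without background correction 2.74 against 3.03, so the order of these genes is not settled.

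**Figure D2:**
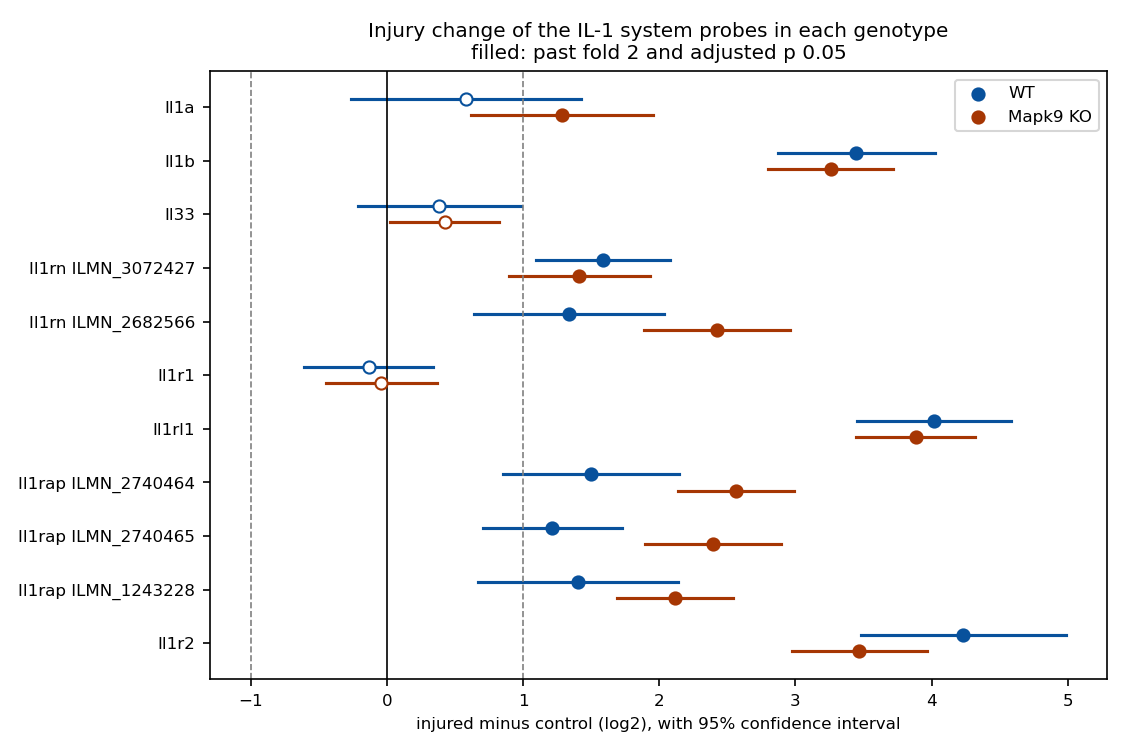
Log2 difference of injured and control cartilage for each probe in WT and Mapk9 KO, with its 95% confidence interval from limma (n = 3 arrays a group), filled where it passed the threshold. In WT 8 of 11 probes passed and in Mapk9 KO 9 of 11, all of them upward. The fitted values of Il1a, Il33, Il1rap, Il1rn ILMN_2682566 and, in WT, Il1r2 rest wholly or partly on control arrays without detection.

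The same probes were then compared between genotypes. In control cartilage 0 of the 11 probes passed the limma threshold between WT and Mapk9 KO, and 1, that of Il1r2, had an unadjusted p-value under 0.05, against 6.46% of all probes. Over all genes, 0.160% passed in either direction, 23 genes, which became 332 without WT control replicate 3. Il1r2 was 0.75 higher on the log2 scale in Mapk9 KO controls (SE 0.33, limma adjusted p = 0.751), and the groups did not overlap, as for 4.26% of all probes in that direction. This difference lay between 0.28 and 1.09 over the alternatives, and only 1 of 3 WT control arrays detected Il1r2. Markers of other tissue also differed between these controls. The summed skeletal muscle level, given below, was higher in Mapk9 KO without overlap, and the neutrophil sums overlapped, with median log2 differences of 1.18 and 0.33. Their part in the Il1r2 difference was not tested.

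In injured cartilage 0 of 11 probes passed in limma as well, against 0.216% of all genes, while 5 had an unadjusted p-value under 0.05, against 12.6% of all probes. Over all genes 31 passed, and with single arrays left out 18 to 145, the highest without WT injured replicate 1, with 0 members among them each time. Under the methods' t-test 0 genes passed. The 5 were the 3 overlapping Il1rap probes, Il1rn ILMN_2682566 and Il1a, all higher in Mapk9 KO. Il1rn ILMN_2682566 was 1.27 higher on the log2 scale (SE 0.31, 2.41-fold, 95% confidence interval 1.49 to 3.89, limma adjusted p = 0.210), in 3 of 3 pairs of arrays with the same replicate number. With the replicate number as a block its limma adjusted p was 0.0312, which passed, while the share of all genes that passed went from 0.216% to 1.20% (172 genes), and the members' counts in the other comparisons did not move. The Il1rap probes were 0.70 to 0.91 higher (limma adjusted p = 0.189 to 0.277, and 0.0461 to 0.114 with the block), under the fold limit. All 3 were also higher in 3 of 3 pairs of arrays with the same replicate number, as was Il1a. At Il1rap ILMN_2740465 and ILMN_1243228 the injured groups did not overlap, as for 7.36% of all probes in that direction. Il1a was 0.94 higher (limma adjusted p = 0.368, and 0.0671 with the block), but it was detected on only 3 of these 6 arrays. Il1b, Il1rl1, Il1r2, Il33, Il1r1 and Il1rn ILMN_3072427 lay between -0.14 and 0.18 on the log2 scale. For Il1b the 95% confidence interval of this difference was -0.57 to 0.39.

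Whether the injury change itself differed between genotypes was tested as an interaction over all 12 arrays. By limma 0 of the 11 probes passed, 3 had an unadjusted p-value under 0.05, against 9.94% of all probes, and 0 of all 14340 genes passed. With the replicate block 105 genes passed and without WT control replicate 3, 207, with 0 members among either. The 3 were Il1rap ILMN_2740464 and ILMN_2740465 and Il1rn ILMN_2682566. Their fitted interactions, positive where the rise was larger in Mapk9 KO, were 1.06 (95% confidence interval 0.28 to 1.85, limma adjusted p = 0.380), 1.18 (0.48 to 1.89, limma adjusted p = 0.312) and 1.08 (0.16 to 2.01, limma adjusted p = 0.428) on the log2 scale. These values rest on control arrays of which none detected Il1rap and 1 of 3 in each genotype detected Il1rn ILMN_2682566, so the size of the difference is not settled. For Il1r2, detected on 1 of 3 WT control arrays, the fitted interaction was -0.76 (-1.72 to 0.19, limma adjusted p = 0.603) and lay between -1.10 and -0.23 over the alternatives. The interval for Il1b, -0.92 to 0.55, was no narrower than that of Il1rl1, -0.84 to 0.57.

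The other genes of the IL-1 pathway were read from 4 lists. Of 21 genes known to be induced by IL-1 in chondrocytes, 12 were upregulated in WT, 1 was downregulated and 8 did not pass. The 12 include Il6, which was not detected on any WT array and has no readable change there. In Mapk9 KO 13 were upregulated, 1 was downregulated and 7 did not pass. The median log2 change of this list was 1.47 in WT and 1.64 in Mapk9 KO, beside -0.02 and -0.04 over all genes at their highest-mean probe. Ptgs2, a further gene of the list, was not detected on any array.

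The list includes chemokine genes. Cxcl1, a neutrophil attractant, went from a log2 level of 4.88 ± 1.06 in WT control to 12.49 ± 0.60 in WT injured cartilage (SD, n = 3), at least 99.8-fold higher, since no WT control array detected it (limma adjusted p = 6.07e-06). Cxcl2, a related chemokine, was at least 25.1-fold higher at its brighter probe in WT. Ccl2 is a chemokine that draws monocytes, and it was at least 2.80-fold higher. Ptges, which makes prostaglandin E2, rose at both probes in both genotypes. Its brighter probe was detected on 1 of 3 control arrays of each genotype (fitted log2 change 2.25 in WT, limma adjusted p = 0.000283). The other was detected on no control array, and by that probe Ptges was at least 2.40-fold higher in WT and at least 2.65-fold higher in Mapk9 KO. The single fall in WT was that of Mmp13, a collagenase, at 1 of its 3 probes (2.84-fold lower, limma adjusted p = 0.000827), whereas its highest-mean probe had a log2 change of 0.62 (limma adjusted p = 0.119). The fall in Mapk9 KO was that of Vcam1 (-1.12, SE 0.16, limma adjusted p = 0.000329). Mmp13 and Vcam1 were named after their values were seen.

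Of 15 genes of IL-1 receptor signaling, all measured, 1 was upregulated in WT and 14 did not pass, with a median log2 change of -0.16. The counts here, 1 in WT and 2 in Mapk9 KO, are near the shares over all genes of 8.72% and 11.0%. That gene was Irak3, known as a brake on IL-1 receptor and Toll-like receptor signaling, which rose by 1.15 (SE 0.21, 2.23-fold, limma adjusted p = 0.00320). The 2 in Mapk9 KO were Irak2 at 1 of its probes (1.24, SE 0.21, limma adjusted p = 0.000873) and Peli1 (1.07, SE 0.18, limma adjusted p = 0.000735), both named after their values were seen. Irak3 had a log2 change of 0.97 there, just under the fold limit. The adapter Myd88 had log2 changes of 0.32 in WT and 0.35 in Mapk9 KO and did not pass.

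Of 8 inflammasome and IL-1 processing genes 6 were in the table, and 0 passed by limma in WT. Casp1, the protease that matures IL-1β, was detected on all arrays and had log2 changes of -0.04 in WT (SE 0.29) and -0.03 in Mapk9 KO (SE 0.18). Nlrp3 was not detected on any array. In Mapk9 KO 1 gene was upregulated, Gsdmd, which encodes the pore-forming protein gasdermin D, at least 2.62-fold at 1 of its 3 probes (limma adjusted p = 0.000103). Its highest-mean probe, detected on all those arrays, had a log2 change of 0.83 and did not pass the fold limit. A count of 1 in 6 genes is close to the 11.0% of all genes. Among 7 measured IL-1 family members outside the 8 genes, Il18rap, a subunit of the IL-18 receptor, was upregulated in both genotypes at 1 of its 2 probes. The fitted log2 change was 1.79 in WT (SE 0.26, limma adjusted p = 0.00104). No WT control array detected it, and by the lower bound it was at least 2.60-fold higher. In Mapk9 KO, where 1 of 3 control arrays detected it, the fitted change was 2.10 (SE 0.23, limma adjusted p = 4.39e-05). This count of 1 in 7 genes stands beside 8.72% of all genes in WT and 11.0% in Mapk9 KO. The other 6 did not pass for injury in either genotype. Between genotypes in injured cartilage, Il18, which encodes a cytokine processed by Casp1, was higher in Mapk9 KO, at a log2 level of 7.28 ± 0.11 against 6.26 ± 0.07 in WT (SD, n = 3, difference 1.02, SE 0.15, limma adjusted p = 0.0368). This call was lost under the methods' t-test. Il18 was named after its values were seen, and no other gene of the 4 lists passed in that comparison.

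**Figure D3:**
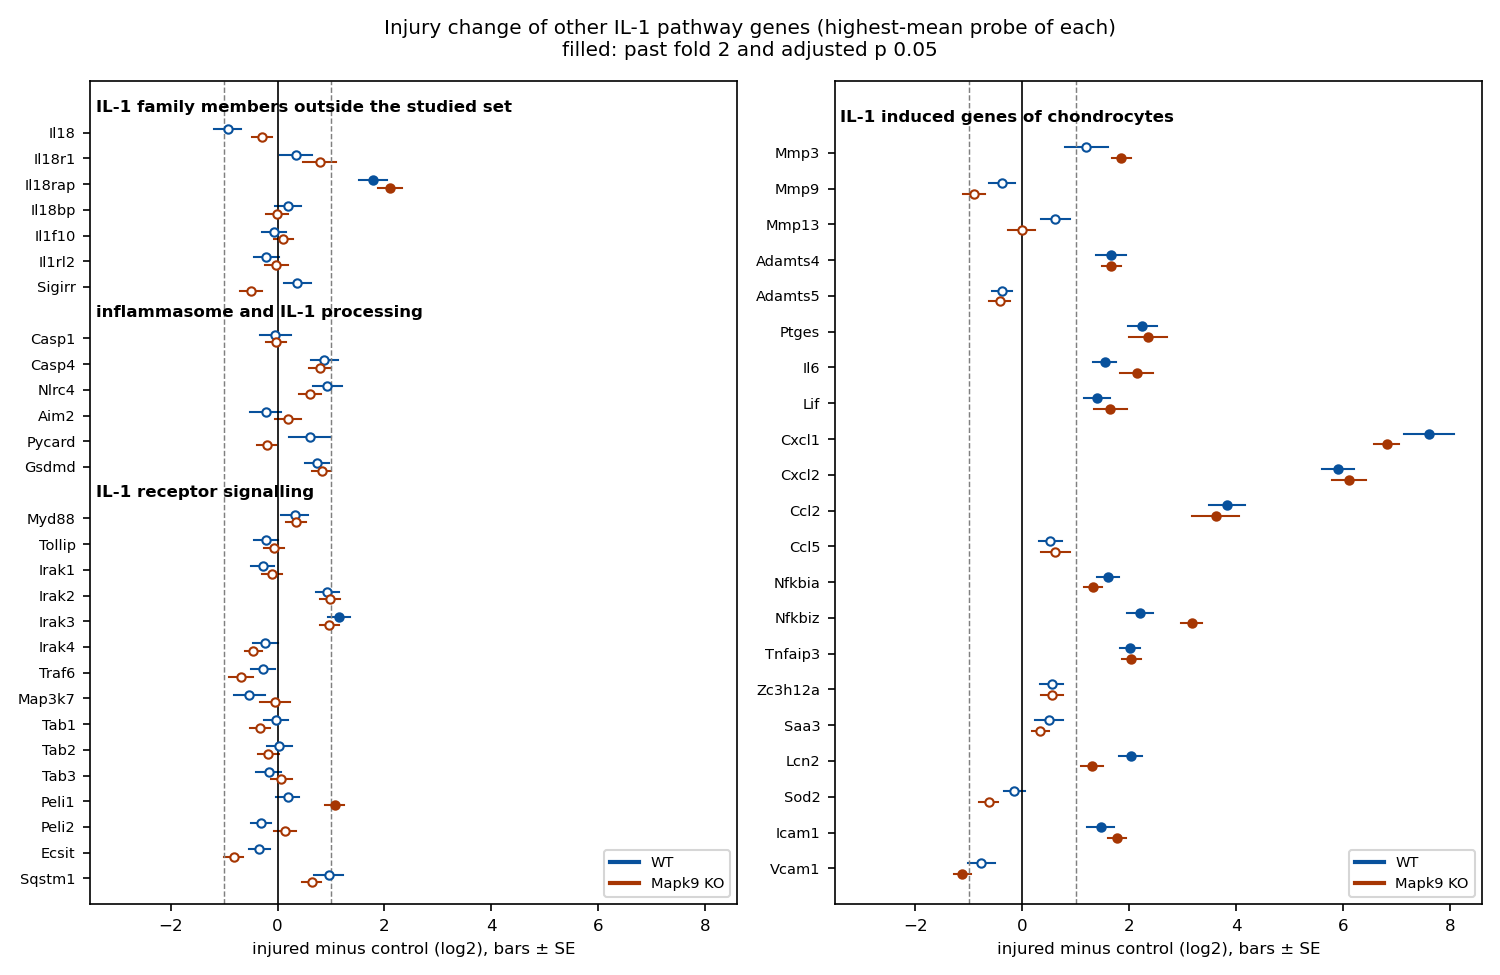
Log2 difference of injured and control cartilage for 28 family, processing and signaling genes (left) and 21 IL-1 induced genes (right), at the highest-mean probe of each gene, with the limma standard error. Cxcl1, Cxcl2 and Ccl2 have the largest fitted values in both genotypes, against controls of which at most 1 of 3 arrays detected them, while most signaling genes lie within 1 log2 unit of 0.

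The epiphysis also holds marrow, vessels and attached tissue, and several IL-1 genes are known to be expressed by neutrophils, macrophages and mast cells, so the markers of those cells are given beside the rises. Of 11 neutrophil markers, 8 were upregulated and 0 downregulated in WT, and 7 and 0 in Mapk9 KO, and none was undetected. Their summed linear level ran from 54538 to 91417 in WT control and from 120585 to 143372 in WT injured cartilage. In Mapk9 KO it ran from 70911 to 100010 in controls and from 100680 to 140381 post injury. The summed neutrophil level thus moved in the same direction as Il1b, Il1rn and Il1r2, and its part in their rise was not tested. Ltf and Mpo had the highest mean levels of that list. At their highest-mean probes they did not pass, with log2 changes of 0.39 and 0.67 in WT and -0.20 and 0.11 in Mapk9 KO. Both were counted as upregulated through another probe.

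Of 11 macrophage markers, all detected, 2 were upregulated and 6 downregulated in WT, and 2 and 7 in Mapk9 KO. The 2 that rose were Cd14 (log2 change 5.01 in WT, SE 0.23, limma adjusted p = 1.13e-06) and Lyz2 at 1 of its 2 probes, while Csf1r, the receptor of macrophage growth factor, fell by 1.87 in WT (SE 0.26, limma adjusted p = 0.000648) and was named after its values were seen. The median log2 change of the list was -1.38 in WT and -1.54 in Mapk9 KO, while the summed level, whose rise lies mostly in Lyz2 and Cd14, went the other way. It ran from 9704 to 13518 in WT control and from 20160 to 23880 in WT injured cartilage. It ran from 12355 to 14858 in Mapk9 KO control and from 21152 to 28394 in Mapk9 KO injured cartilage. For mast cells, which are known for Il1rl1, 7 of 9 markers were in the table, and Tpsb2, Tpsab1 and Ms4a2 were not detected on any array. Of these 7, 2 were upregulated and 1 downregulated in WT, and 0 and 3 in Mapk9 KO, where 1 of the 3 is Tpsb2, which was not above background. The summed mast cell level ran from 1228 to 1499 in WT control and from 1576 to 1895 in WT injured cartilage, and from 1345 to 1577 and 1432 to 1490 in Mapk9 KO. Kit and Gata2 had the highest mean levels of that list and make up most of the sum. Neither passed in WT, with log2 changes of 0.49 and 0.22 (limma adjusted p = 0.128 and 0.507). The 2 that rose there were Cpa3 and Fcer1a, the latter at 1 of its 2 probes, while Mcpt4 fell in both genotypes. Cpa3, Fcer1a and Mcpt4 were named after their values were seen. The sums of control and injured arrays did not overlap in WT and overlapped in Mapk9 KO, and the part of mast cells in the rise of Il1rl1 was not tested.

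Markers of skeletal muscle fell, 10 of 11 in WT and 11 of 11 in Mapk9 KO, and their summed level dropped from between 65754 and 89985 to between 9500 and 33509 in WT. In Mapk9 KO it dropped from between 106347 and 159373 to between 12238 and 29109. Tnni2 and Myl1 had the highest mean levels there. Of the 11 chondrocyte markers, 7 were upregulated and 1 downregulated in WT, and 8 and 0 in Mapk9 KO, and their summed level ran from 47960 to 68977 in WT control and from 97882 to 115770 in WT injured cartilage. The 1 called downregulated in WT, Col11a1, was called at a probe other than its highest-mean one. That one had a log2 change of 0.85 in WT (limma adjusted p = 0.0304), and Col11a1 was upregulated in Mapk9 KO. It was named after its values were seen. Of 7 fibroblast and synovium measured markers 3 were downregulated in WT and 5 in Mapk9 KO, and 0 were upregulated. Their summed level ran from 21513 to 30787 in WT control and from 15004 to 21857 in WT injured cartilage, and from 23650 to 34149 and 10388 to 12988 in Mapk9 KO. Of 9 endothelial markers 1 was upregulated in WT and 0 in Mapk9 KO. The part of tissue makeup in the IL-1 changes was not tested.

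The pattern of each member over the 12 arrays was set beside that of 13767 genes detected on at least 3 arrays. Pearson's r is given as a description only, since the 12 points are 6 control and 6 injured arrays. Any gene with a large rise post injury has an r near 1 with a member that rose strongly. Genes with an r above 0.9 numbered 1095 for Il1b, 1062 for Il1rl1, 902 for Il1rn, 739 for Il1r2, 592 for Il1rap and 10 for Il1a, and 0 for Il33 and Il1r1. The genes most like Il1b were Samsn1 (0.997), Adam8 (0.997) and Osm (0.997). For Il1rl1 they were Tnfaip3 (0.993), Glis3 (0.993) and Ccl3 (0.991), and for Il1r2 A530021P12Rik (0.993), Fcgr3 (0.992) and Ankrd22 (0.991).

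For Il1rn the most similar genes were LOC218617 (0.988), Dmkn (0.988) and Cd69 (0.985), and for Il1rap Gramd2 (0.983), Ptpn2 (0.983) and Far1 (0.980). Il1a, detected on 3 of the 12 arrays, followed Kdm5a (0.968), Ddx10 (0.965) and Baz1a (0.929) most closely. Il1rap was detected on 6 and Il33 on 4, so the r of these 3 genes rests largely on values not above background. The patterns of Il33 and Il1r1 had fewer close matches, Zfp184 (0.866), Cerox1 (0.865) and A130090M16Rik (0.856) for the former and 4933413J09Rik (0.895), Cpne4 (0.803) and Tcra-V8 (0.799) for the latter. Among the members themselves, Il1b had an r of 0.978 with Il1rl1, 0.977 with Il1r2 and 0.968 with Il1rn, but 0.613 with Il1a and -0.243 with Il1r1.

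The 8 probes outside the normalized table add little to these readings. A further Il1a probe, 2 of Il1rn, 1 of Il1r1, 1 of Il1rl1 and the Il1rap probe ILMN_1226650, which is assigned to variant 2, were not detected on any of the 12 arrays. The Il1rap probes ILMN_1233678 and ILMN_1226428 were detected on 1 and 2 of the Mapk9 KO injured arrays and on no other array. The 2 tables assign Il1rap ILMN_1243228 to different variants, so no variant is given for it.

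**Figure D4:**
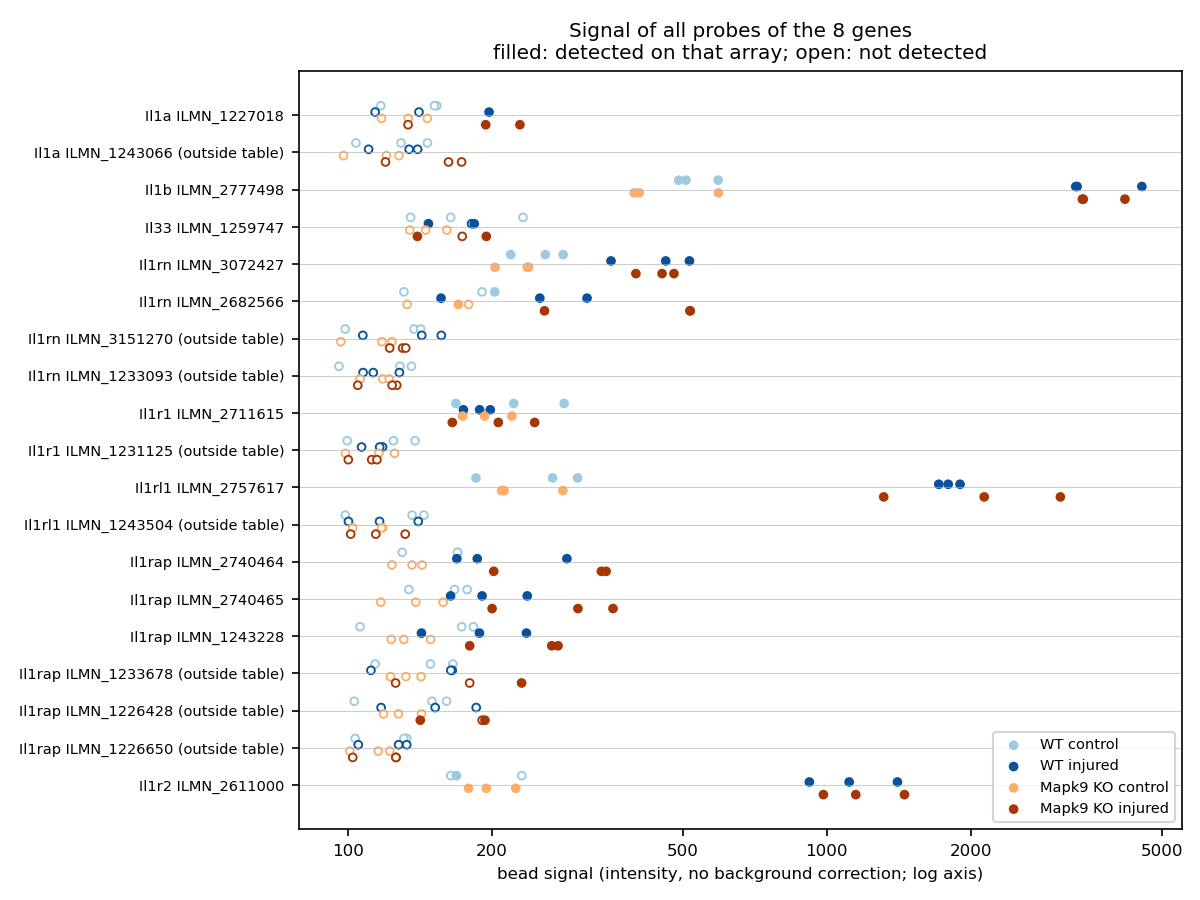
Bead signal without background correction, on a log axis, of all 19 probes of the 8 genes on the 12 arrays, filled where the probe was detected. Probes outside the normalized table reach at most 231, while Il1b reaches 4548, Il1rl1 3074 and Il1r2 1453 on injured arrays.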

How the data were processed

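Illumina mouse BeadChips were hybridized with RNA of 12 samples of murine hip cartilage. The authors deposited bead signal intensities of 45281 probes with detection p-values, and vsn-normalized log2 values of 21004 probes after background correction with negative controls. The version of vsn is not given in the sources used here. Groups and replicate numbers were taken from the labels. The 8 genes, the other lists and the tests were chosen with earlier results of these data known.

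The deposited log2 values were fitted probe by probe in limma 3.58.1 (lmFit and eBayes, R 4.3.3), with the 6 arrays of each comparison, or all 12 for the interaction, and Benjamini-Hochberg adjustment over all 21004 probes. The threshold was that of the study, more than 2-fold with an adjusted p below 0.05, on fitted values also where a bound is printed. P-values measure the spread between pools of hips. No exact permutation of 3 against 3 arrays can go below 0.1. The number of arrays limits the precision. A gene passed where at least 1 probe passed. Different probes of a gene were kept apart, and lists were read at the highest-mean probe of each gene for changes and at all probes for calls.

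After subtraction of group means, the 18 pairs of arrays with one replicate number had correlations of 0.153 to 0.390 and the 36 other pairs of -0.289 to 0.0825, so the numbers pair the arrays by this check. The fits printed first have no block, as the methods name none, and values with the replicate block stand beside a result whose call it changes. Arrays correlated between 0.868 and 0.986, and 0 pairs were identical. In simulated data with 200 of 21004 probes changed, limma recovered 79.0% of changes of 1.5 log2 units in the WT comparison, 78.7% in Mapk9 KO and 54.3% for the interaction. The simulated arrays had independent noise, with no pairing by replicate number and no detection limit. These shares may therefore not hold for the real arrays, least of all for probes near the detection limit. The alternatives were neqc (offset 16) on the table's probes or on all probes, quantile normalization without background correction, subtraction of array medians, a filter to probes detected on 3 arrays or more, one fit of all 12 arrays, replicate number or label code number as a block, a t-test as in the methods, limits of 1.5-fold or an adjusted p below 0.01, the highest-mean probe of each gene, and each array left out. Named genes were all members, up to 4 genes a pathway list by largest change among those passing in WT, processing and family genes passing in either genotype, the 2 brightest markers a list, the 3 genes most like each member, and Mapk9. Genes also named outside that rule were Casp1, Nlrp3, Myd88, Ptgs2, Il6, markers not detected on any array, and those said to be named after their values were seen. Motifs were searched in the 250 bases before each start in a RefSeq table. Probe coordinates are not given because the tables name no genome build.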

Additional observations from a re-analysis of the deposited data

Results flagged for a closer look

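Of the 8 member probes that have no normalized value, 2 passed the detection limit, and in both cases on Mapk9 KO injured arrays. Il1rap ILMN_1233678 was detected on 1 of 3 of these arrays (bead signal 231, 126 and 180) and on 0 of 6 control arrays. Il1rap ILMN_1226428 was detected on 2 of 3 (191, 142 and 193) and on 0 of 6 control arrays. These are 3 detections in 96 values. Over all 24277 probes outside the normalized table, 0.798% of values were detected. None of these probes was detected on more than 2 arrays, so the share of 0.05 that background alone would pass is no measure for them. Whether the 3 detections are background was not tested. Groups of 3 arrays were not tested for single arrays that stand apart.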

How the results depend on the processing

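The replicate block raised the number of members past the threshold between genotypes in injured cartilage from 0 to 1, by Il1rn ILMN_2682566 (log2 difference 1.27, limma adjusted p = 0.0312), while the count over all genes went from 31 to 172. With this pairing it changed no other call of a member. Over all genes the interaction count went from 0 to 105 with the block and to 207 without WT control replicate 3, and no member was among the calls in either. In WT, 4 in place of 5 members rose under quantile normalization without background correction and under the methods' t-test, where Il1rap was lost, and at Il1rn ILMN_2682566 the probe's call was lost under both (log2 change 0.61 without background correction). In Mapk9 KO, 5 in place of 6 rose under neqc, on the table's probes (Il1a at 0.87) or all probes, without background correction (0.38) and under the methods' t-test, where Il1a was lost. At single probes, the Mapk9 KO calls of Il1rn ILMN_3072427 (0.92) and of Il1rap ILMN_2740465 (0.99) and ILMN_1243228 (0.77) were lost without background correction, and the WT calls of Il1rn ILMN_2682566 and Il1rap ILMN_1243228 at an adjusted p below 0.01. The cause was not tested. Leaving out each array in turn gave 5 members in WT and 6 in Mapk9 KO every time, and 0 between genotypes and for the interaction. Among member values without a call, 39 of 642 changed sign, and no called value did. The log2 changes of Il1b in WT lay between 2.99 and 3.72 over all alternatives, those of Il1rl1 between 3.03 and 4.19 and those of Il1r2 between 2.74 and 4.57. Depth of signal limits Il1a, Il33 and Il1rap, whose control arrays were all below detection, and Il1rn ILMN_2682566 in both genotypes and Il1r2 in WT, which 1 of 3 control arrays detected.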
